A study of Solanum lycopersicum with 12 samples.

Results

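Of 17887 genes measured in red ripe tomato flesh, 147 differed so strongly between the parental lines Q and G that their libraries were separated by a wide gap, and their levels were followed into the 2 reciprocal hybrids. A gene was a member when the lowest library of one parent held at least 4 times the level of the highest library of the other, when the higher parent averaged at least 5 CPM (the count scaled to the total of its library), and when the lower parent had counts in at least 1 library. Of the members, 119 were higher in Q and 28 were higher in G. Another 3 genes were left out by the choice of members. Because the parental values chose the members, the difference between Q and G is described here and not tested, and the hybrid libraries are the measurements that the choice did not use. The place of a hybrid between its parents still depends on the parental values.

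Q (Querubín FCA) and G (Gema FCA) are recombinant inbred lines, which are lines fixed by repeated selfing, from a cross of the cultivated Solanum lycopersicum with the wild Solanum pimpinellifolium. QxG and GxQ are the hybrids of these lines with the order of the cross exchanged, so all 4 genotypes descend from both species. Each genotype had 3 libraries, each made from the mesocarp, the fleshy wall, of a red ripe fruit grown in the same greenhouse. The labels do not say whether the fruits of a genotype came from separate plants, so p-values measure only the spread between these fruits.

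A hybrid of inbred lines carries 1 allele of each gene from either parent. Where the difference in level lies with the allele itself, each allele keeps its own output and the hybrid is found midway between the parents on the linear scale, which is called additive dosage. Where a diffusible regulator sets the level, both alleles in the hybrid respond alike, and the hybrid can resemble one parent, which is called dominance. A level outside the range of both parents is called transgressive. These terms are background, and neither mechanism was measured here, since the counts do not separate the alleles.

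Total counts were 15207931 to 25320267 per library. All 8 listed genes of ripe flesh, such as the polygalacturonase gene PG2A and the phytoene synthase gene PSY1, were present, with summed levels of 21839 to 43413 CPM in Q, 27113 to 28689 CPM in G, 21330 to 26449 CPM in QxG and 15662 to 21967 CPM in GxQ. Of the listed markers of other tissues, 2 of 7 of fruit epidermis and 2 of 4 of green tissue were among the genes measured, and 0 of 3 of seed. The epidermis markers summed to 12.8 to 26.5 CPM in Q, 10.98 to 11.5 CPM in G, 4.63 to 8.60 CPM in QxG and 4.01 to 15.1 CPM in GxQ, and those of green tissue to 63.1 to 186, 184 to 481, 95.3 to 225 and 88.6 to 203 CPM in the same order; their part in the results was not tested. Of the epidermis markers CER6, a wax synthesis gene, held 10.1, 15.4 and 3.36 CPM in Q and 0.0954 to 0.986 CPM in G. Over the hybrid fruits it held 0 to 0.658 CPM, so every Q fruit was above every fruit of the other genotypes. CD2, a regulator of cutin, held 9.46 to 11.1 CPM in Q, 9.99 to 10.9 CPM in G and 3.91 to 14.8 CPM over the hybrid fruits. In the first QxG fruit 1436 genes had no counts, while 31 to 338 had none in other fruits, so a 0 there is not read as absence. Only 77 genes had 1 to 4 counts in that fruit, against 100 to 730 in other fruits. Whether low counts were set to 0 in its library is not known, and its values enter every QxG mean. The third Q fruit stood apart from the other Q fruits: it was the lowest of the 3 for 71.8% of all genes, its counts differed from theirs by a mean chi-square of 139 and 131 per gene against 15.3 between those, and it held 7220 CPM of PG2A against 1935 and 2304 CPM. The table pairs no names with its identifiers, which are printed here without their version suffix, so most members are known by identifier and chromosome only.

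Members higher in Q were mostly of modest abundance. Their mean in Q ran from 5.02 to 242 CPM with a median of 13.95 CPM, and their mean in G had a median of 0.737 CPM. The ratio of the parental means was 5.13 to 1906, with a median of 14.9. Members higher in G were more abundant, at 5.205 to 2058 CPM in G with a median of 27.2 CPM, against a median of 1.44 CPM in Q. Their ratio of means was 4.95 to 321, with a median of 12.4. At least 20 CPM in the higher parent was reached by 47 of the 119 and by 16 of the 28.

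Solyc03g117860 was the most abundant member higher in Q, with 233, 368 and 125 CPM in the 3 Q libraries and 17.0, 15.5 and 27.3 CPM in G. Its hybrid libraries split: 308, 19.4 and 224 CPM in QxG and 365, 52.8 and 278 CPM in GxQ. The second fruit of either hybrid thus lay below every Q fruit, in QxG within the range of G, and the other hybrid fruits lay within the range of Q. Solyc10g085830 held 217, 237 and 206 CPM in Q and 40.8, 45.2 and 42.5 CPM in G. Here the QxG fruits were close together, at 106, 114 and 109.5 CPM, while GxQ ran from 52.9 to 145 CPM. Solyc10g005510 was steady in Q, at 124, 119 and 124 CPM, and stood at 8.73, 12.4 and 12.7 CPM in G. Its levels of 55.7, 27.6 and 48.7 CPM in QxG and 45.1, 7.87 and 15.1 CPM in GxQ all lay below the mid-parent, and the second GxQ fruit lay below every G fruit. Solyc02g092670 stood at 187 ± 57.7 CPM in Q, 21.4 ± 7.37 CPM in G, 53.9 ± 3.54 CPM in QxG and 38.1 ± 21.2 CPM in GxQ (mean ± SD, n = 3 each, as for other such values). Solyc10g080840 was uneven within Q, at 29.9, 26.7 and 289 CPM, against 2.38 to 5.65 CPM in G, and it held 37.7, 65.7 and 49.9 CPM in QxG and 23.8, 12.2 and 15.4 CPM in GxQ. Its position of 42.4% in QxG rests on the third Q fruit, since every QxG fruit was above the first and second Q fruits.

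Among members higher in G, Solyc12g055730 held 2703, 1880 and 1591 CPM in G but 37.0, 49.8 and 108 CPM in Q. QxG held 729, 929 and 937 CPM, and GxQ held 284, 2801 and 1438 CPM, so that a single genotype spanned nearly the whole parental distance. Solyc07g056430 was even in G, at 1273, 1312 and 1294 CPM, and low in Q, at 40.3, 38.6 and 85.0 CPM. It reached 435, 600.5 and 656 CPM in QxG and 213, 643 and 805 CPM in GxQ, all between the parents. Solyc01g105660 stood at 194, 249.9 and 202 CPM in G, against 7.47, 8.90 and 4.63 CPM in Q. All 6 of its hybrid libraries lay between 107 and 135 CPM, around the mid-parent. The plot of the most abundant members shows these patterns side by side.

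**Figure D1:**
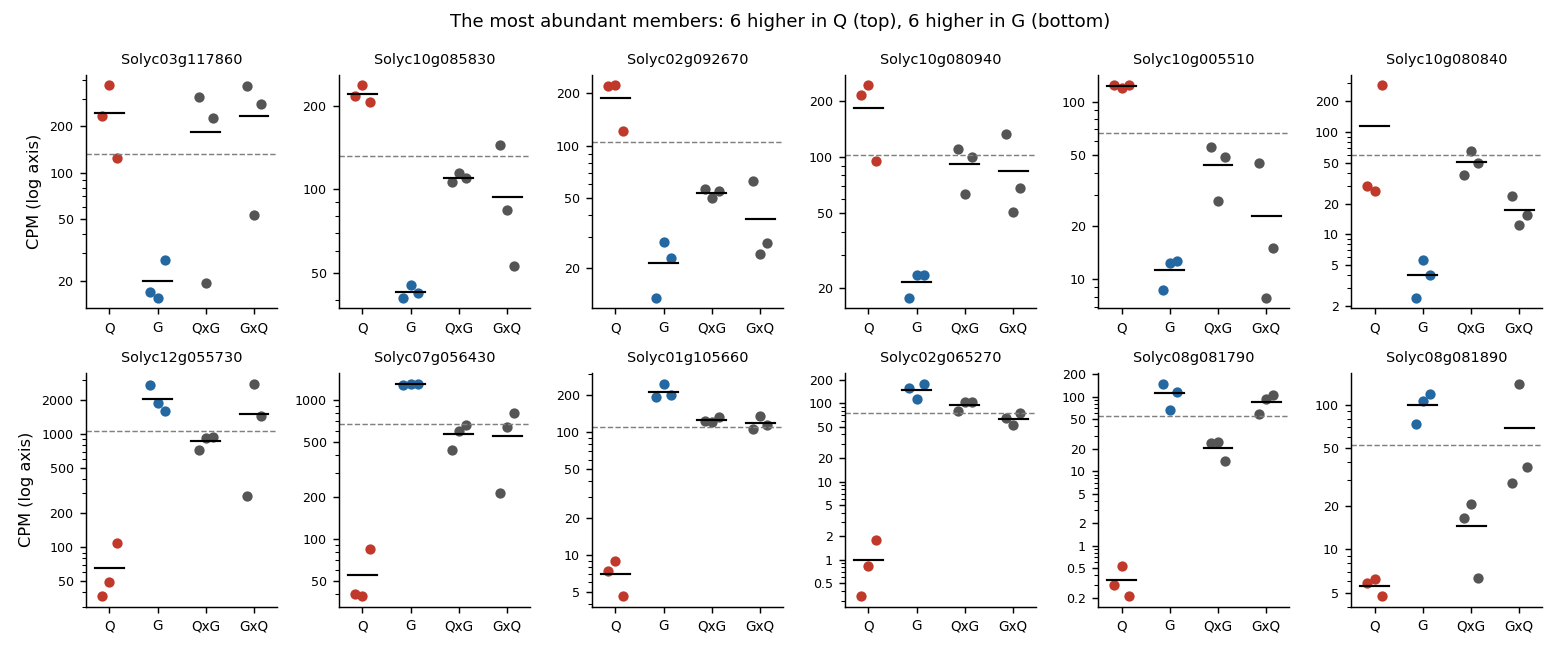
Level in CPM (log axis) of the 6 most abundant members higher in Q (top) and higher in G (bottom), with 1 point per library, a bar at the mean of 3 libraries and a dashed line at the linear mid-parent. Solyc01g105660 lies near the dashed line in all 6 hybrid libraries, while Solyc03g117860 spans 19.4 to 365 CPM among them.

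The limit of 4 cut through a continuous range. Just inside it were Solyc10g080940 and Solyc11g066820 among genes higher in Q, with gaps of 4.05 and 4.16, and just outside were Solyc03g112170 and Solyc01g086660, both with a gap of 3.99. For genes higher in G, Solyc04g009250 and Solyc09g075730 stood inside at 4.01 and 4.03, and Solyc10g085140 and Solyc05g006470 outside at 3.99 and 3.96. The number of members higher in Q rested on the third Q library: without it, 305 genes met the rule in place of 119, and 36 in place of 28 were higher in G.

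Parental libraries that took no part in a choice were read as a check. When the choice was repeated without the first or the second Q library, 155 and 163 genes met the rule, and in the library left out 92.9% and 90.2% of them kept the 4-fold gap to every G library. Without the third Q library 341 genes met it, and 43.7% kept the gap there, while 87.1% were still on the same side of all G libraries. Leaving out the first, second or the third G library gave 90.7%, 81.4% and 80.0% of 161, 177 and 180 genes. By edgeR's quasi-likelihood test across all genes, 111 of the 119 were called higher in Q, as were 4.51% of all genes, and 28 of 28 lower in Q, as were 2.81% of all genes. The rule used this contrast, so nothing is read from these counts. Without the first, second or the third G library 59, 67 and 66 of the 119 were called.

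Members higher in Q mostly fell short of the mid-parent in the hybrids. The position of a hybrid is given as the percentage of the way from the mean of the lower parent, 0%, to the mean of the higher parent, 100%, on the linear CPM scale, so that 50% is the mid-parent. Their median position was 27.1% in QxG (quartiles 16.2% and 40.9%) and 15.5% in GxQ (quartiles 8.03% and 28.3%). Expressed as a share of the Q level, the medians were 32.6% and 21.4%, where the mid-parent itself would be 53.4%. In QxG, 4 members lay below 0%, 50 between 0% and 25%, 48 between 25% and 50%, 11 between 50% and 75%, 3 between 75% and 100% and 3 above 100%. In GxQ the corresponding numbers were 6, 77, 27, 3, 4 and 2. The QxG median was 13.1% when the choice and the position were made without the third Q library. Positions in both directions are set by the parental means that chose the members, so they are not free of the choice.

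All 3 QxG libraries lay below the mid-parent for 68 of the 119 and above it for 2, against 48.8% and 8.33% of all genes. All 3 GxQ libraries lay below it for 78 and above it for 2, against 41.6% and 18.5% of all genes. With TMM-scaled totals the counts for the same members were 53 below and 2 above in QxG and 75 below and 3 above in GxQ, and the shares of all genes were 34.1% and 17.1% in QxG and 34.1% and 25.8% in GxQ. Single libraries moved these shares: in QxG 81.5% lay below without the first fruit and 75.1% with members chosen without the third Q library, and 9.24% lay above without the second fruit. In GxQ 91.6% lay below without the first fruit and 7.56% above without the second. Both hybrids were below in every library for 50 members, a count not made over all genes. A member above in every library of both hybrids was Solyc01g107560, at 6.60 ± 1.26 CPM in Q, 0.780 ± 0.235 CPM in G, 7.25 ± 2.27 CPM in QxG and 7.92 ± 2.00 CPM in GxQ, which was named after its values were seen.

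**Figure D2:**
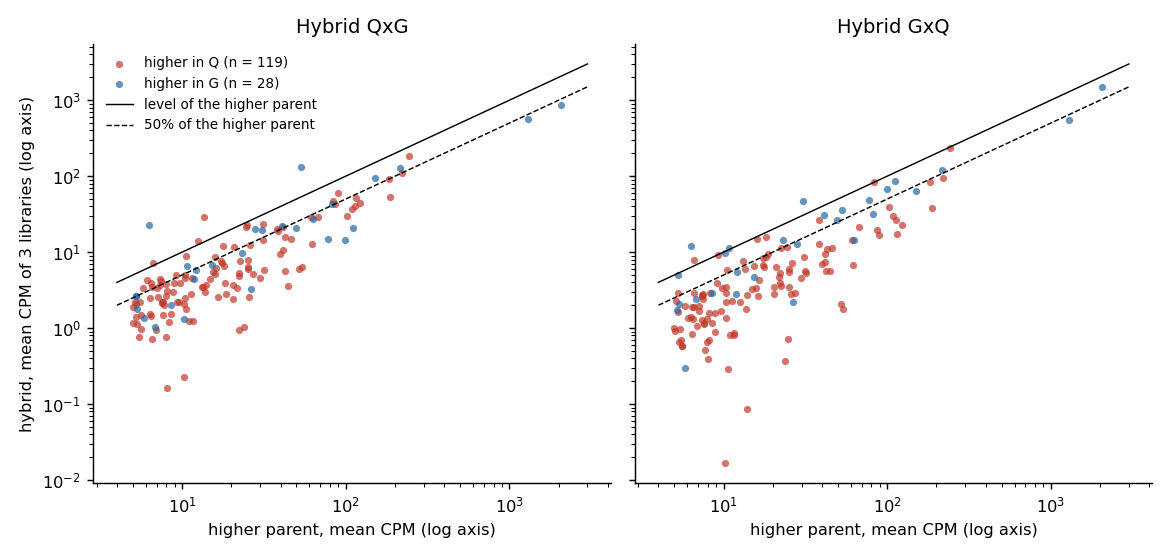
Mean CPM of each member in its higher parent (x, log axis) against its mean CPM in hybrid QxG (left) and GxQ (right; y, log axis), with a solid line at the level of the higher parent and a dashed line at 50% of it. Members higher in Q lie mostly under the dashed line, more deeply in GxQ, with median shares of 32.6% and 21.4% of the Q level.

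Fruits of the same hybrid differed widely in these members, and they differed together. The median position of the 119 was 35.7%, 8.37% and 26.8% in the first, second and the third QxG fruit, and 36.3%, 0.836% and 5.99% in the GxQ fruits. In the second GxQ fruit 63 of the 119 stood at or below the highest G library, in the third 32 and in the first 8. In QxG these counts were 15, 27 and 3, and no such count was made over all genes. The first GxQ fruit was the highest of its genotype for 99 of the 119 members, or 83.2%, where it was highest for 53.2% of all genes. The second QxG fruit was the lowest of its genotype for 86, or 72.3%, against 27.3% of all genes.

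The spread can be read as the ratio of the highest to the lowest library of a genotype, with 0.5 CPM added. It was at least 4 for 34 of the 119 in QxG and for 54 in GxQ, or 28.6% and 45.4%, against 4.10% and 3.07% of all genes. In Q it was at least 4 for 14 of them, or 11.8%, against 4.38% of all genes. In G it was at least 4 for 0 of them, against 0.593% of all genes. The Q and G libraries were used in the choice, so nothing is read from these parental counts. In the hybrids the median level of the 119 was low, at 1.73 to 5.95 CPM over the QxG libraries and 0.952 to 5.76 CPM over the GxQ libraries. The shares of all genes were not matched for level, so the part of count noise in the spread was not tested. Without the first GxQ fruit the median position in GxQ was 3.28%, and without the second it was 21.2%. For QxG it was 35.4% without the second fruit and 19.9% without the first, in which 6 of the 119 had 0 counts.

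Members higher in G stood nearer the mid-parent. Their median position was 38.0% in QxG (quartiles 18.2% and 51.9%) and 45.4% in GxQ (quartiles 30.0% and 71.4%), and the median share of the G level was 43.2% and 49.6%. All 3 QxG libraries lay below the mid-parent for 13 of the 28 and above it for 4, and all 3 GxQ libraries below it for 7 and above it for 7. As shares, 46.4% and 14.3% in QxG stood beside 48.8% and 8.33% of all genes, and 25% and 25% in GxQ beside 41.6% and 18.5%. With TMM-scaled totals 11 lay below and 4 above in QxG, and 6 below and 6 above in GxQ. In QxG these were 39.3% and 14.3%, beside 34.1% and 17.1% of all genes. In GxQ they were 21.4% and 21.4%, beside 34.1% and 25.8%. The share above the mid-parent thus exceeded that of all genes with column totals only. Without the first QxG fruit the QxG median was 30.2% and 67.9% lay below, and without the second GxQ fruit 50% lay below in GxQ. By fruit the median was 39.9%, 35.8% and 27.3% in QxG and 25.9%, 60.2% and 48.3% in GxQ. The first GxQ fruit, where members higher in Q were high, was the lowest of its genotype for 18 of the 28, or 64.3%, where it was lowest for 17.8% of all genes. The second was the highest for 20, or 71.4%, against 25.1% of all genes. By these medians the first GxQ fruit was nearer Q than the other GxQ fruits in both sets of members, as the plot by library shows.

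**Figure D3:**
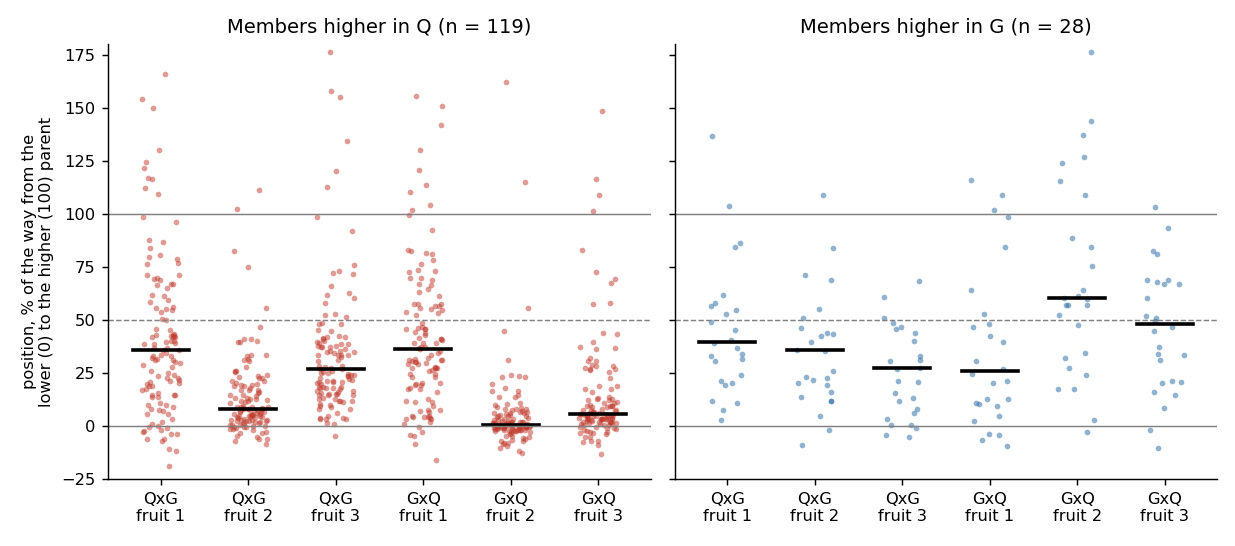
Position of each member (point) between the lower parent (0%) and the higher parent (100%) in each hybrid library, with a black bar at the median and a dashed line at the mid-parent. Among members higher in Q (left) the medians run from 0.836% in the second GxQ fruit to 36.3% in the first, and among those higher in G (right) from 25.9% to 60.2%; 2 points on the left and 9 on the right lie above the axis.

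Tests of each hybrid against each parent were made in the fit across all genes, and the parental values behind them are those that chose the members. QxG was called lower than Q in 20 of the 119 members higher in Q (5.91% of all genes were called so) and higher in 0 (3.64% of all genes). It was called higher than G in 63 of them (3.14% of all genes) and lower in 0 (5.37%). For GxQ, 53 of the 119 were lower than Q (7.41% of all genes) and 0 higher (8.13%), while 41 were higher than G (6.99%) and 1 was lower (5.34%). Among the 28 members higher in G, QxG was called lower than G in 10 and higher in 1, and higher than Q in 21. GxQ was called lower than G in 7 and higher than Q in 23. These counts moved with single libraries. In either direction, QxG against G was called in 63 of the 119, but in 17, 24, 15 and 23 without the first, second or the third G library or the third QxG library. GxQ against G was called in 42, but in 15, 15, 17 and 17 without the first, second or the third G library or the first GxQ library. QxG against Q gave 7 when the first Q library was left out and 11 when the second was, 9 and 12 for the second and the third of QxG, and 39 and 32 for the first and second of GxQ. GxQ against Q gave 31 without the second Q library and 29 and 30 without the second and the third GxQ library. Of the 28 higher in G, QxG against G was called in 11, but in 4 to 7 without the first or second Q, any G library, the second QxG, the third QxG or the third GxQ library. For the 119, DESeq2 called 95 in QxG against G and 64 in GxQ against G. The shares of all genes that DESeq2 called in these contrasts were not counted, so the rise is not read as a trait of the members.

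The same fit also compared each hybrid with the mean of the parental log values. For genes with a large parental difference this log mid-parent lies well below the linear one, so a hybrid at additive dosage lies above it. The median log2 difference from it was 0.74 in QxG and 0.02 in GxQ over members higher in Q, and 0.68 and 1.13 over members higher in G, against -0.05 and -0.01 over all genes. QxG was called above it in 6 members higher in Q and 8 higher in G (3.37% of all genes), and below it in 2 and 0 (5.14%). GxQ was called above it in 5 and 12 (9.47% of all genes), and below it in 6 and 2 (6.28%). Over both directions, the 119 gave 14 calls for QxG without the second QxG library, and for GxQ 21 without the first and 7 without the third GxQ library; the 28 gave 5 for QxG without the third G library and 9 for GxQ without the second. DESeq2 called 17 of the 119 in QxG and 19 in GxQ, in place of 8 and 11, and its shares of all genes were not counted here. Solyc01g105660 was above it in both hybrids, with log2 differences of 1.91 and 1.75 (adjusted p = 0.000822 and 0.000159), at positions of 57.4% and 53.9%. Solyc02g065270, with 156, 115 and 179 CPM in G and 0.342 to 1.79 CPM in Q, held 79.4, 104 and 103 CPM in QxG and 64.0, 52.4 and 75.03 CPM in GxQ. Every QxG fruit of this gene was above every GxQ fruit, yet the hybrids were not called different (log2 fold change 0.66, SE 0.352, adjusted p = 0.277).

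The fold change between the reciprocal hybrids uses no library of the choice. The spread behind its test in the fit of 12 libraries is shared with the parental libraries, whose values chose the members. Of the 119 members higher in Q, 88 had a higher fitted level in QxG than in GxQ, or 73.9%, against 48.5% of all genes, and the median log2 fold change was 0.67 against -0.02 over all genes. Only 8 were called, all higher in QxG, where 2.66% of all genes were called so, and 0 were called lower, where 7.49% were. Of the 28 members higher in G, 14 had a higher fitted level in QxG. Here 1 was called higher and 5 were called lower in QxG, or 3.57% and 17.9%. A fit of the 6 hybrid libraries alone, free of the parental libraries, called 4 of the 119 higher and 0 lower, and 0 of the 28 higher and 3 lower, where 1.32% of all genes were called higher and 4.94% lower. It kept 6 of the 14 calls. With the replicate number as a block in the hybrids, 17 and 2 of the 119 were called higher and lower, and 1 and 6 of the 28. The shares of all genes in this fit were 3.52% and 8.6%. The labels state no pairing of same-numbered fruits. DESeq2 called 21 and 1 of the 119 and 2 and 6 of the 28, against 5.52% and 9.68% of the genes to which it gave an adjusted p. Without the first GxQ fruit 24 of the 119 were called, and the median log2 fold change was 1.75. Without the second GxQ fruit the median was 0.29 and without the first QxG fruit 0.44, while 14 were called without the second QxG fruit and 5 without the third, where 2 of the 28 were called.

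Solyc11g022590, on chromosome 11, differed most firmly. It held 9.81, 25.4 and 33.3 CPM in QxG and 1.10, 0.451 and 0.587 CPM in GxQ, with 42.7, 26.6 and 5.26 CPM in Q and 0.132 to 0.381 CPM in G. QxG thus lay within the range of Q and GxQ just above that of G, and the hybrids did not overlap (log2 fold change 5.12, SE 0.719, adjusted p = 0.000985). Solyc05g054590 held 4.86, 3.96 and 4.82 CPM in QxG and 0.987, 1.30 and 0.267 CPM in GxQ, with a Q mean of 11.5 ± 2.25 CPM and a G mean of 0.589 ± 0.241 CPM (log2 fold change 2.48, SE 0.489, adjusted p = 0.00688). Solyc06g083480 held 0.880, 1.34 and 8.81 CPM in QxG and 0, 0.10 and 0.160 CPM in GxQ, where Q held 13.95 ± 2.93 CPM (log2 fold change 5.40, adjusted p = 0.00568). These calls held under every alternative fit tried. Solyc04g054740 and Solyc02g084200 were also higher in QxG, by 2.19 and 2.56 on the log2 scale (adjusted p = 0.0291 and 0.0219). The call for Solyc04g054740 ended without the third QxG or without the first or the second GxQ fruit, and that for Solyc02g084200 without the first QxG or without the first or the second GxQ fruit or with a replicate block over all genotypes. The fit of the hybrids alone called neither (highest adjusted p = 0.114 and 0.117 over all alternative fits).

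Among members higher in G, Solyc08g081790 held 23.8, 24.7 and 13.7 CPM in QxG and 59.0, 93.8 and 104 CPM in GxQ. G held 151, 66.9 and 116 CPM and Q 0.21 to 0.538 CPM, so that QxG lay at a position of 18.4% and GxQ at 76.9% with no overlap (log2 fold change -2.0, SE 0.338, adjusted p = 0.00282). Solyc06g069070 had the same order, at 1.22, 2.06 and 0.734 CPM in QxG and 10.1, 11.8 and 6.94 CPM in GxQ, against 10.3 ± 4.11 CPM in G and 0.0977 ± 0.0977 CPM in Q (log2 fold change -2.78, adjusted p = 0.00398). Solyc08g082870 and Solyc08g081890 were lower in QxG too, at positions of 17.6% against 62.4% and 9.495% against 67.4% (log2 fold changes -1.70 and -2.24, adjusted p = 0.0107 and 0.0270). The first of these was not called without the third QxG library (adjusted p = 0.0563 there), and the second was not called in the hybrids alone, nor without the first or the third QxG or the second GxQ library (0.116 at most over all fits). In Solyc09g075730 GxQ held 31.1, 49.4 and 60.2 CPM, against 31.6, 12.6 and 13.8 CPM in QxG and 30.7 ± 1.57 CPM in G (adjusted p = 0.0303). Its call ended in the fit of the hybrids alone and without the second or the third library of either hybrid.

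**Figure D4:**
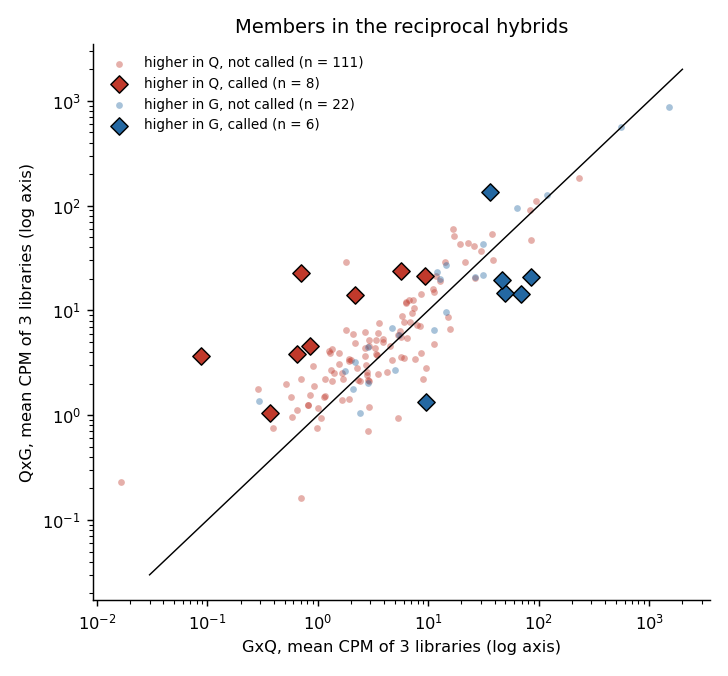
Mean CPM of each member in GxQ (x, log axis) against QxG (y, log axis), with a line at equal levels; diamonds mark members called between the hybrids at an adjusted p under 0.05. The 8 called members higher in Q all lie above the line, and 5 of the 6 called members higher in G lie below it.

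Transgressive levels were rare among the members. All 3 QxG libraries lay above every parental library in 0 of the 119 and 2 of the 28, against 2.14% of all genes, and below every parental library in 1 and 0, against 11.6%. For GxQ 0 and 0 lay above, against 5.94% of all genes, and 1 and 0 below, against 10.8%. The members were chosen by their parental values, which also set these limits, so nothing is read from the comparison with all genes. Solyc08g016770 held 26.0, 23.2 and 20.1 CPM in QxG, against 6.48, 8.29 and 4.15 CPM in G and 0 to 0.368 CPM in Q, and GxQ held 11.8, 17.8 and 6.51 CPM. Every QxG fruit was above every fruit of the other genotypes, and QxG was called higher than G (adjusted p = 0.0314). Solyc01g081250 reached 104, 126 and 169.8 CPM in QxG, above its G levels of 77.5, 34.7 and 47.6 CPM and its GxQ levels of 12.3, 65.8 and 30.2 CPM. This gene was not called between QxG and G in the edgeR fit (log2 fold change 1.43, adjusted p = 0.103). Its difference between the hybrids was called (log2 fold change 1.92, adjusted p = 0.0350), a call that ended when the third G, second QxG or the third QxG library was left out, or the first or the third of GxQ, and also in the fit of the hybrids alone and with a replicate block over all genotypes.

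Solyc04g014510 went the other way. It held 17.0, 25.6 and 29.0 CPM in Q and 1.81, 2.76 and 2.17 CPM in G, but 0.922, 0.948 and 1.26 CPM in QxG and 0.494, 0.251 and 0.374 CPM in GxQ. Both hybrids thus lay below every parental fruit, and GxQ below QxG without overlap (log2 fold change 1.56, adjusted p = 0.0243). This difference between the hybrids was not called in the fit of the hybrids alone, nor without the third QxG or without the second or the third GxQ fruit.

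Among the abundant members whose position varied least over the hybrid fruits, some stood near the lower parent. Position is linear, so low levels span little of it even where fruits differ by a large ratio. The choice thus favours members near the lower parent, and nothing is read from their share. Solyc03g083560 had a mean of 20.4 ± 2.60 CPM in Q, of 3.04 ± 0.530 CPM in G, and of 2.43 ± 1.03 CPM in QxG and 2.77 ± 1.36 CPM in GxQ. Solyc10g086180 stood at 52.1 ± 9.45 CPM in Q, and at 5.98 ± 1.94 CPM in QxG and 2.096 ± 1.83 CPM in GxQ, around its G level of 3.83 ± 1.13 CPM, though its GxQ fruits ranged from 0.534 to 4.11 CPM. Among members higher in G, Solyc04g009250 stood at 44.7, 22.2 and 12.6 CPM in G and at 2.84 ± 0.305 CPM in Q, and its hybrid libraries, at 0.603 to 4.61 CPM, lay around the Q level. Both lines thus had members whose high level was not seen in any hybrid fruit. In contrast, Solyc05g006120, at 49.4 ± 1.09 CPM in G, held 20.7 ± 3.46 CPM in QxG and 26.6 ± 1.45 CPM in GxQ, at positions of 35.4% and 48.6%. In all, 24 of the 119 and 9 of the 28 lay between the parental ranges in each of the 6 hybrid libraries, 2 and 0 stood at or below the highest library of the lower parent in all 6, and 1 and 1 at or above the lowest library of the higher parent. Such counts were not made over all genes, so these describe the members only.

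Names could be given to few members. AGPL1 (Solyc01g109790) and AGPS1 (Solyc07g056140) encode a large and a small subunit of ADP-glucose pyrophosphorylase, the enzyme that supplies ADP-glucose for starch synthesis. The symbols AGPL1 and CEL1 each named 1 RefSeq gene on the chromosome of the identifier, while AGPS1 was not found among the RefSeq symbols. AGPL1 held 10.4, 8.07 and 2.31 CPM in Q and 0.263 to 0.524 CPM in G, and its hybrid fruits held 0.922, 0.725 and 1.15 CPM in QxG and 2.19, 0.401 and 0.640 CPM in GxQ. AGPS1 held 24.4, 23.1 and 13.6 CPM in Q and 1.70 to 3.02 CPM in G, with 1.802, 3.96 and 5.40 CPM in QxG and 7.13, 1.203 and 2.08 CPM in GxQ. Both subunit genes were near the G level in the hybrids, at positions of 7.90% and 7.27% in QxG and 10.1% and 5.88% in GxQ, and both were highest in the first GxQ fruit. CEL1 (Solyc08g081620), an endoglucanase that acts on cell wall glucans, was higher in G, at 5.01, 7.69 and 4.86 CPM against 0.196 to 0.830 CPM in Q. It held 0.754, 2.68 and 0.629 CPM in QxG and 0.384, 0.451 and 0.0534 CPM in GxQ, and 5 of these 6 fruits stood at or below the highest Q fruit.

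Members were found on every chromosome from 1 to 12. Those higher in Q were 14 on chromosome 9 and 13 on chromosome 10, or 1.11% of the measured genes of each, but 1 on chromosome 12 and 3 on chromosome 8, or 0.0859% and 0.232%. Those higher in G were most frequent on chromosome 8, with 5, or 0.386%. Of these 5, CEL1, Solyc08g081790, Solyc08g081890 and Solyc08g082870 lay within a stretch of 90 measured genes in identifier order, 45 genes from the end of the chromosome's list. In this stretch the members other than CEL1 were higher in GxQ than in QxG, while CEL1 was not called between the hybrids (log2 fold change 2.23, adjusted p = 0.0976).

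Neighbouring members were also found elsewhere. Of the 119, 27 had another member higher in Q within 10 measured genes, or 22.7%, where 11.9% of all genes lay that close to one, and of the 28, 6 had one higher in G, or 21.4%, against 2.80%. Adjacent in identifier order were 4 pairs of the same direction, among them Solyc11g072840 and Solyc11g072860. Solyc11g072860 held 36.5, 50.7 and 39.7 CPM in Q, 0.132 to 0.429 CPM in G, 10.2, 1.00 and 5.56 CPM in QxG and 14.8, 0.251 and 2.08 CPM in GxQ. All of its hybrid fruits lay below the range of Q, and the second of either hybrid was the lowest. Solyc03g083920, higher in G, with 53.4, 98.3 and 94.6 CPM in G and 0.147 to 1.52 CPM in Q, was the next measured gene after Solyc03g083910, which the choice left out. It held 20.8, 89.1 and 18.2 CPM in QxG and 18.3, 47.2 and 28.7 CPM in GxQ, highest in the second fruit of either hybrid. This pair and Solyc03g083920 were named after their values were seen.

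**Figure D5:**
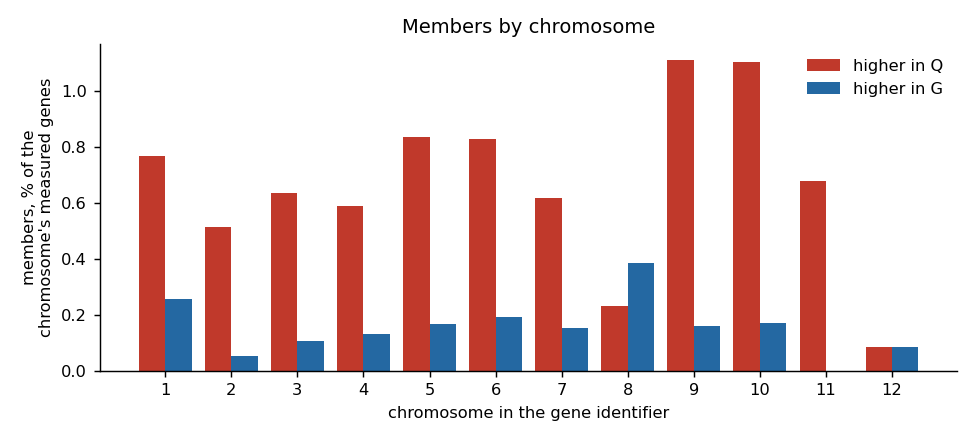
Members as a percentage of the measured genes of each chromosome, by the chromosome number in the identifier, for members higher in Q (red) and in G (blue). Members higher in Q peak at 1.11% on chromosomes 9 and 10 and reach 0.0859% on chromosome 12; members higher in G peak at 0.386% on chromosome 8.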

How the data were processed

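RNA from 12 fruits was sequenced, 3 per genotype. The deposited table holds whole-number read counts per gene and is named as normalized; its totals differ between libraries, and it was read as unscaled counts. The tools in the submitters' processing notes, named there without roles, were FastQC, fastp 0.21, HISAT2 2.1.0, featureCounts, Subread, edgeR and R 4.0.3; the build, annotation and strand setting were not given in the sources used. All columns were matched by name (0 left over), and 0 identifiers matched the 41476 RefSeq genes.

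CPM is the count scaled by the column total of the deposited counts. Fold changes and calls are from edgeR 4.0.16 (quasi-likelihood test, TMM factors 0.884 to 1.24, 1 mean per genotype over 12 libraries, R 4.3.3), with Benjamini-Hochberg adjusted p under 0.05 over 17887 genes; standard errors were obtained from the log2 fold change and its F value, as their ratio after taking the root of F. The filterByExpr filter removed 0 genes. Plots used matplotlib 3.10.9. Scripts were tested on simulated data. DESeq2 1.42.0, other scalings, rules and left-out libraries were alternatives.

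Members and lists were chosen with earlier results of these data known. Genes were named by rule: the 6 most abundant per direction, up to 6 called between hybrids by adjusted p, and transgressive ones. Also named were those nearest the limit, listed ones, and the 3 per direction of least position span over hybrids with at least 20 CPM. Exceptions are marked. Deviations of same-numbered QxG and GxQ fruits correlated at 0.111, 0.281 and 0.184, all over 0.1. These fruits were therefore treated as paired in the block fit, though the labels state no pairing. In every other pair of genotypes at least 1 of the 3 correlations was lower. No libraries were identical.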

Additional observations from a re-analysis of the deposited data

Results flagged for a closer look

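The reciprocal hybrids differed in 8 of the 119 members higher in Q and in 6 of the 28 higher in G, by edgeR's quasi-likelihood test of the difference itself. All 8 were higher in QxG, or 6.72% of the 119, and 0% were lower. Of the 28, 3.57% were called higher in QxG and 17.9% lower. Of all genes 2.66% were called higher in QxG and 7.49% lower. A fit of the 6 hybrid libraries alone kept 6 of the 14 member calls. In 3 members higher in G all 3 fruits of one hybrid lay above the linear mid-parent and all 3 of the other below it. Solyc02g065270 lay above it in QxG, at a position of 63.3%, and the test between the hybrids did not call it. Solyc06g069070 and Solyc08g081790 lay above it in GxQ, at 93.7% and 76.9%, and both were called. How many of all genes lay on opposite sides in this way was not counted, so nothing is read from the number of 3. Groups of 3 libraries are too small to single out an outlying fruit by a gap test.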

How the results depend on the processing

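The choice of members set their number: a 3-fold gap gave 186 higher in Q, an 8-fold gap 57 and 12 in the 2 directions, a floor of 2 CPM 182 higher in Q, and a floor of 20 CPM 47 and 16. With the 8-fold gap all 3 QxG libraries lay below the linear mid-parent for 70.2% of those higher in Q, and 0% lay above it in QxG or GxQ; with the floor of 20 CPM 0% lay above it in GxQ. With TMM-scaled totals in the choice as well, 44.6% lay below in QxG. On the log2 scale the median position was 51.2% in QxG for members higher in Q, and 63.2% and 75.8% in QxG and GxQ for those higher in G; from medians over libraries the QxG value of the latter was 31.3%. Without the third Q and the first QxG library together, 305 genes were higher in Q, with a median position of 9.67% and 18.3% of the Q level in QxG, 88.2% below the mid-parent in QxG, 56.4% below and 6.89% above in GxQ, and a QxG position of 31.4% for members higher in G.

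DESeq2 called more members higher in Q: 22 between the hybrids, 17 and 19 against the log mid-parent in QxG and GxQ, 35 for QxG against Q, and 95 and 64 against G. Between the hybrids it also called more of all genes, with 5.52% higher and 9.68% lower in QxG, against 2.66% and 7.49% by edgeR. In the other contrasts its shares of all genes were not counted. A fit of the 6 hybrid libraries alone called 4 and 3 between the hybrids. With a replicate block over all genotypes 12 members were called between the hybrids, and with the block in the hybrids 19 and 7. Among named genes the block over all genotypes ended 2 calls and the block in the hybrids 0. The causes of these differences were not tested.

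Leaving out 1 library at a time, members higher in Q numbered 119 to 305. Their calls ran from 59 to 117 for Q against G, 5 to 24 between the hybrids, 7 to 14 and 7 to 21 against the log mid-parent in QxG and GxQ, 7 to 39 and 29 to 79 against Q, and 15 to 78 and 15 to 58 against G. Their median position in QxG ran from 13.1% to 35.4%, the share below the mid-parent from 56.8% to 81.5% in QxG and 56.4% to 91.6% in GxQ, and the share above it from 1.31% to 9.24% and 1.37% to 7.56%. For members higher in G, calls ran from 2 to 6 between the hybrids, 4 to 13 for QxG against G, and 5 to 12 and 9 to 16 against the log mid-parent. Their median position in QxG ran from 30.2% to 41.1%, and the share below the mid-parent from 41.7% to 67.9% in QxG and 19.4% to 50% in GxQ. Of 589 fold changes of named genes between the hybrids under other settings, 0 reversed a call, 32 lost one and 11 gained one. Only the named genes called between the hybrids in the main fit could lose a call. Contrasts with the parents are not in these numbers. Depth limits the low members: 14 of the 119 had a hybrid library at 0 counts and 71 had at least 10 counts in every one.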
